A study of Mus musculus with 9 samples.

Results

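The immediate early genes described here were Fos, Fosb, Fosl1, Fosl2, Jun, Junb, Atf3, Egr1, Egr2 and Egr3, chosen by name as 10 of the 49671 genes in the count tables. All 10 were matched to a gene identifier. RNA was measured by bulk poly(A) sequencing in mouse pancreatic cancer cells of the KPC49bKO line (here KO) and the KPCWT line (here WT). The KO line is labelled a knockout of CD49b, the integrin alpha 2 collagen receptor chain encoded by Itga2, and the study looked for RNA differences between it and the WT line. There were 2 KO cultures, 2 WT cultures, 2 KO tumours and 3 WT tumours. All cells were grown in DMEM with 10% fetal bovine serum and antibiotics, and the cultures were harvested near 80% confluence. Tumours came from 1000000 cells injected under the skin of syngeneic C57BL/6 mice and were broken up with a commercial enzyme kit before RNA extraction, a step the cultures did not go through. Each genotype is 1 line, so a KO effect below is a difference between 2 lines, and the labels give neither the ages of the mice nor how the knockout line was made. The replicates are called biological without naming separate cultures or animals, so p-values measure the spread between these samples.

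Immediate early genes such as Fos and Egr1 are transcribed within minutes of a stimulus such as serum, adhesion, stress or tissue dissociation, without new protein synthesis. The members were chosen by name, so not each of them need respond in this way. The Fos and Jun proteins and Atf3 are leucine zipper factors that pair into AP-1 dimers, whereas the Egr proteins bind GC-rich DNA through zinc fingers. The serum response factor Srf, with its ETS partners, and factors that bind cyclic AMP response elements drive much of their transcription, and in pancreatic cancer they lie downstream of Ras and MAP kinase signalling.

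In culture, KO cells had more Fos, Fosb, Fosl2 and Egr1 RNA and less Jun RNA than WT cells. In tumours Jun, Egr1 and Egr3 were lower in KO tumours than in WT tumours. The KO effect on Egr1 thus had opposite directions in the 2 settings, and the test of that difference passed. Of the culture calls, only those of Fos and Egr1 held in each alternative run. The tumour calls of Jun and Egr1 were lost with limma-voom and without some single libraries, and Egr3 had only 6 and 8 counts in KO tumours.

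To show the DNA next to these genes, 100 bases upstream of the RefSeq start are printed for Fos and Fosb, which were higher in cultured KO cells, for Jun, which was lower, and for Egr2, which was measurable almost only in tumours. The sequences are from RefSeq on GRCm38.p6, 5′ to 3′ on the strand of the gene. Capitals mark matches to TGACG (the core of the cyclic AMP response element), to the EGR site GCGNGGGCG or to the CArG box of Srf, each searched on both strands. The Egr2 line is 1 of 5 RefSeq start windows of the gene and was picked for its matches.
Fos, chr12:85473790-85473889, plus strand: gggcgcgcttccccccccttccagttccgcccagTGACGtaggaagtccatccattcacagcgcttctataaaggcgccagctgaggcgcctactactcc
Fosb, chr7:19310046-19310145, minus strand: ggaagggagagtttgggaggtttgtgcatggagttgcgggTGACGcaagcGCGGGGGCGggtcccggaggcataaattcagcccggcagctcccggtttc
Jun, chr4:95052223-95052322, minus strand: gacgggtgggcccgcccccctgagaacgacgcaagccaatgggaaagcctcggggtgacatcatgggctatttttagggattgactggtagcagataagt
Egr2, chr10:67537769-67537868, plus strand: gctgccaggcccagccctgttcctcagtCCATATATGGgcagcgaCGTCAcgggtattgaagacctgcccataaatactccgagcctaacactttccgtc

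The Fos stretch holds TGACG 66 bases before the start. The Fosb stretch holds TGACG at 60 bases and the EGR site at 50 bases before the start. In the Egr2 stretch the CArG box begins 72 bases before the start, and the TGACG on the other strand lies 55 bases before it. The Jun stretch has no match to these patterns, nor to TGANTCA, the AP-1 consensus, which was found in no window of a member. It does hold tgacatca, which is TGANTCA with an extra base in the middle and lay outside the search. RefSeq windows from 250 bases before to 50 bases after the start were available for Fos, Fosb, Fosl2, Jun, Junb, Atf3 and Egr2. TGACG was present in windows of 5 of these genes (Fos, Fosb, Junb, Atf3 and Egr2), against 20.8% of all 32851 windows. The EGR site was present in Fosb and Fosl2, against 5.55% of windows. The CArG box was found in Egr2 alone of these genes, against 1.63%, and TGANTCA in 7.81% of all windows. Sites more than 250 bases before the start were not searched, and no window was available for Fosl1, Egr1 or Egr3. A match describes letters only and is not evidence of a bound site.

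Total counts per library ran from 16032912 to 21247023. Levels are given as CPM (read counts divided by library size), scaled by TMM over the 9 libraries, and Itga2 was checked first. Itga2 had 96.5 and 104 CPM in KO cultures, against 168 and 135 CPM in WT cultures, and 44.5 and 64.0 CPM in KO tumours, against 119, 144 and 137 CPM in WT tumours. Its RNA was lower in each KO group without being lost, and a read count does not show whether the protein is made. WT tumours 1 and 2 were closer to each other than any other replicate pair, with a chi-square per gene of 6.55 against 25.2 to 43.9 elsewhere. Mitochondrial genes took 2.05% to 2.16% of counts in KO cultures and 3.39% to 4.72% in WT cultures, and 2.69% to 3.33% in KO tumours and 1.90% to 2.00% in WT tumours. The 6 epithelial markers fixed for the cancer cells (Epcam, Krt8, Krt18, Krt19, Cdh1 and Cldn4) did not all mark the cultures. Krt8, Krt18, Krt19 and Cdh1 were at 662 CPM or more in every culture. Epcam had 0 and 1 counts in KO cultures, against 56 and 53 counts in WT cultures, and Cldn4 had 2 and 7 counts in KO cultures, against 39 and 33 counts in WT cultures.

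**Figure D1:**
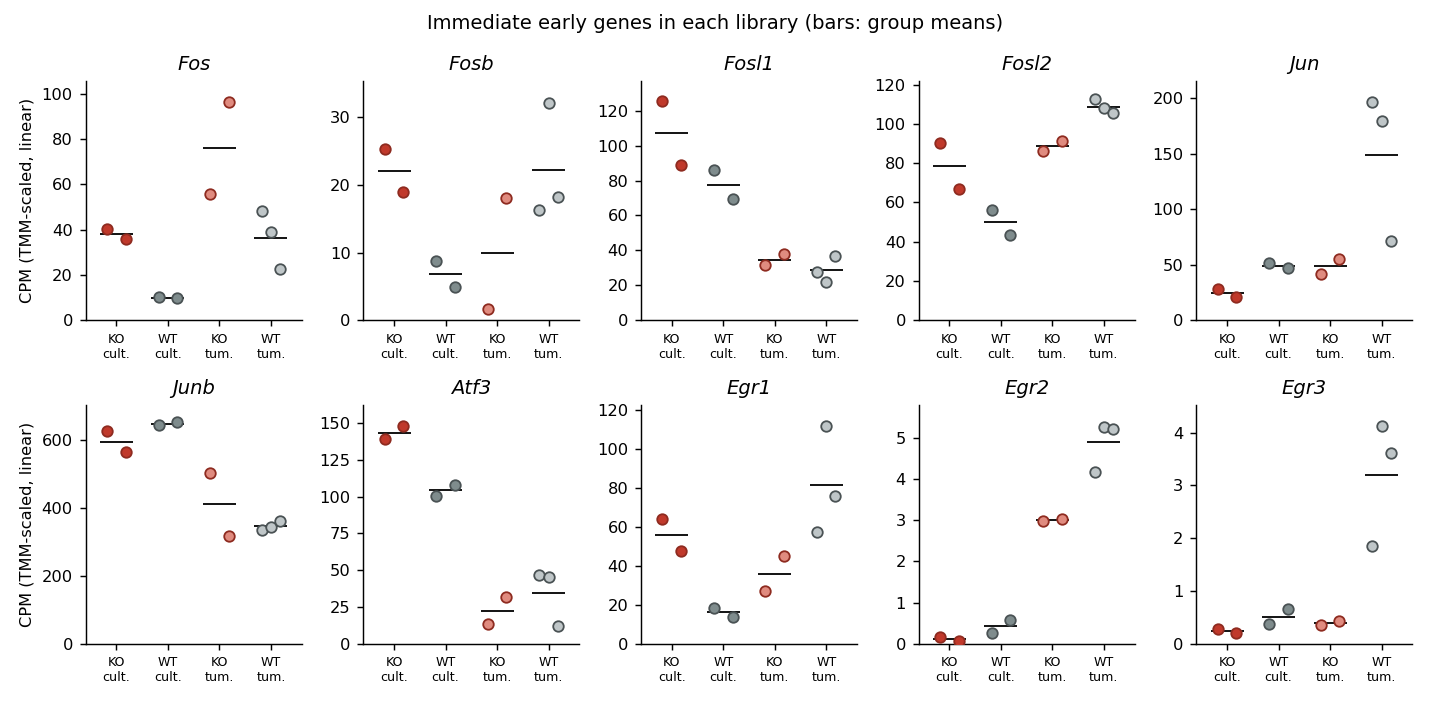
TMM-scaled CPM (linear axis from 0) of each of the 10 genes in every library, with KO and WT cultures left of KO and WT tumours; each point is 1 library and each bar a group mean. Fos in KO cultures lies near 38.0 CPM against 9.91 CPM in WT cultures, and Egr3 stays at or under 0.43 CPM in KO tumours while the WT tumours reach 4.12 CPM.

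The 10 genes spanned a wide range of levels. Per kilobase of exon, Junb, the AP-1 subunit known as a weaker activator than Jun, had the highest level in every group, with a mean of 259 CPM per kilobase in KO cultures, 282 in WT cultures, 179 in KO tumours and 151 in WT tumours. Atf3, a stress-induced factor of the same superfamily, and Fosl1, the Fos relative known as Fra-1, came next in both cultures. Atf3 had 66.7 CPM per kilobase in KO cultures and 48.4 in WT cultures, and Fosl1 had 52.7 in KO cultures and 38.2 in WT cultures. Below them the order differed between the lines: Fos was 4th at 16.2 CPM per kilobase in KO cultures and 6th at 4.21 in WT cultures, where its range overlapped that of Egr1, while Jun was 7th at 7.70 in KO cultures, overlapping Fosl2, and 4th at 15.4 in WT cultures.

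In tumours the second place went to Fos in the KO line, at 32.3 CPM per kilobase, and to Jun in the WT line, at 46.8. In KO tumours Fosl1, Jun, Atf3, Fosl2 and Egr1 followed with each range overlapping the next, and in WT tumours Jun, Egr1, Atf3, Fos, Fosl1 and Fosl2 did. Egr2 and Egr3 had the lowest means in every group, at most 0.124 CPM per kilobase in cultures, and the ranges of Fosb and Egr2 overlapped in KO tumours. The order from 3rd to 7th in KO tumours and from 2nd to 7th in WT tumours is therefore not resolved by these libraries.

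The first comparison asked how the KO and WT lines differ in culture. Among the 13573 genes tested, 25.5% were called at an adjusted p under 0.05 (edgeR quasi-likelihood test, Benjamini-Hochberg), 9.27% higher and 16.2% lower in KO cells. Of the 10 members 8 passed the filter on low counts, and 5 of those were called, 4 higher (Fos, Fosb, Fosl2 and Egr1) and 1 lower (Jun). The median log2 fold change of the 8 was 0.52, against -0.00 over all genes tested. KO and WT values did not overlap for any of the 8, but the same was true of 62.0% of all genes tested.

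Fos, the founding partner of Jun in AP-1, had 40.3 and 35.8 CPM in KO cultures, against 10.2 and 9.59 CPM in WT cultures. Both KO cultures lay well above both WT cultures, and replicates were close. The log2 fold change was 1.90 ± 0.19 (SE), a 3.72-fold higher level (edgeR adjusted p = 1.53e-05). Fosb, a Fos paralog, had 25.3 and 19.0 CPM in KO cultures, against 8.78 and 4.96 CPM in WT cultures. The groups did not overlap, and the log2 fold change was 1.64 ± 0.27 (SE; edgeR adjusted p = 0.000791). In the fit of all 9 libraries the Fosb call was lost (edgeR adjusted p = 0.145) at a log2 fold change of 1.69.

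Fosl2, the Fos relative known as Fra-2, had 90.1 and 66.7 CPM in KO cultures, against 56.1 and 43.5 CPM in WT cultures. KO culture 2 lay only a little above WT culture 1, and the log2 fold change was 0.61 ± 0.20 (SE; edgeR adjusted p = 0.0387). Without KO culture 1 the Fosl2 value was 0.38 (edgeR adjusted p = 0.334), without WT culture 2 it was 0.43 (edgeR adjusted p = 0.277), and with scaling by library totals it was 0.59 (edgeR adjusted p = 0.0942). Fosl1 had 125 and 88.8 CPM in KO cultures, against 85.9 and 69.6 CPM in WT cultures. The lower KO value nearly met the higher WT value, and the Fosl1 difference of 0.42 ± 0.20 (log2, SE) was not called (edgeR adjusted p = 0.139). Without KO culture 2 the Fosl1 value was 0.65 and called (edgeR adjusted p = 0.0463), and without KO culture 1 it was 0.15.

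Jun, which can form AP-1 with itself or with any Fos protein, went the other way. It had 28.0 and 21.1 CPM in KO cultures, against 51.2 and 46.9 CPM in WT cultures. Both KO cultures were lower than both WT cultures, and the log2 fold change was -1.04 ± 0.19 (SE), a 2.05-fold lower level (edgeR adjusted p = 0.00153). The Jun call, like that of Fosb, was lost in the fit of all 9 libraries (edgeR adjusted p = 0.101). Junb had 627 and 565 CPM in KO cultures, against 644 and 654 CPM in WT cultures. The KO cultures were only slightly lower, and the difference of -0.17 ± 0.17 (log2, SE) was not called (edgeR adjusted p = 0.510).

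Atf3 had 139 and 148 CPM in KO cultures, against 100 and 108 CPM in WT cultures. The groups were separate but close, and the difference of 0.42 ± 0.15 (log2, SE) was not called (edgeR adjusted p = 0.0619). Egr1, a zinc finger factor induced by growth signals, had 64.2 and 47.4 CPM in KO cultures, against 18.4 and 13.9 CPM in WT cultures. Both KO cultures were far above both WT cultures, with a log2 fold change of 1.75 ± 0.22 (SE), a 3.36-fold higher level (edgeR adjusted p = 7.47e-05). The calls of Fos and Egr1 held in each alternative run.

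Egr2 and Egr3, close relatives of Egr1, were almost silent in culture. Egr2 had 3 and 1 counts in KO cultures, against 4 and 9 counts in WT cultures. Egr3 had 5 and 3 counts in KO cultures, against 6 and 10 counts in WT cultures. Both were lower in the KO cultures in this sample of reads, but neither passed the filter on low counts. With no filter the log2 fold change was -1.72 for Egr2 (edgeR adjusted p = 0.348) and -1.05 for Egr3 (edgeR adjusted p = 0.504), and neither was called.

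**Figure D2:**
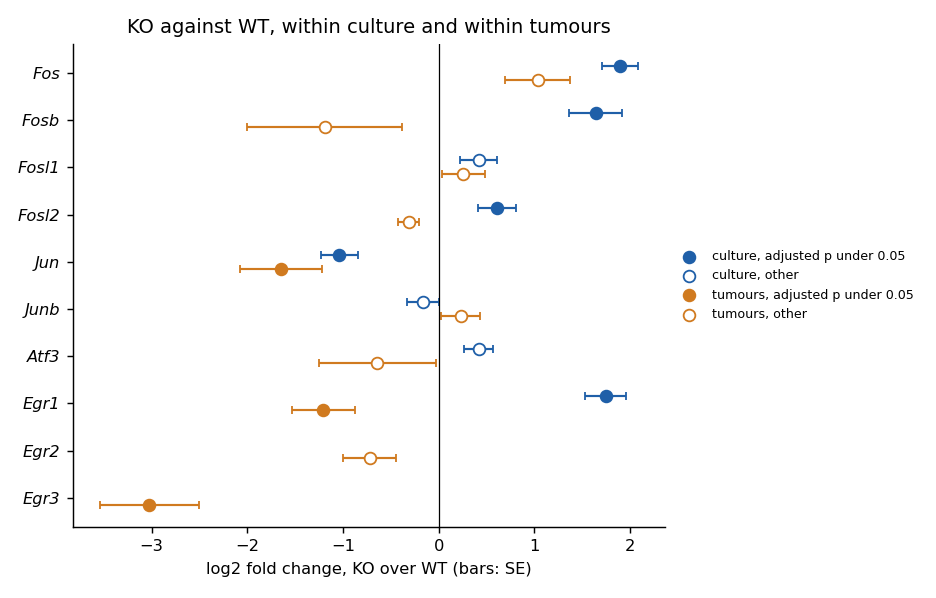
Log2 fold change of KO over WT for each gene tested, within culture (blue) and within tumours (orange), with bars for the SE. Filled points have an edgeR adjusted p under 0.05. Egr2 and Egr3 were not tested in culture and have no blue point. Egr1 lies at 1.75 in culture and at -1.21 in tumours, and Jun lies below 0 in both settings.

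The second comparison was between KO and WT tumours. Bulk tumours mix cancer and host cells, so fewer cells of a type and less RNA per cell cannot be told apart. The summed level of the 6 epithelial markers was 7303 to 9115 CPM in KO tumours and 4109 to 5332 CPM in WT tumours. Epcam went the other way, with 34.3 and 40.9 CPM in KO tumours, against 107, 156 and 66.9 CPM in WT tumours (log2 fold change -1.57, edgeR adjusted p = 0.0243), and Cldn4 overlapped between the groups. The 7 fibroblast markers, all with counts in both groups, summed to 316 to 505 CPM in KO tumours and 892 to 2321 CPM in WT tumours, and the 6 endothelial markers to 31.5 to 63.9 CPM in KO tumours and 61.2 to 136 CPM in WT tumours. The 7 T cell markers summed to 26.6 to 59.7 CPM in KO tumours and 5.23 to 19.98 CPM in WT tumours. The ranges of the 8 macrophage markers (270 to 391 CPM in KO tumours and 222 to 372 CPM in WT tumours) and of the 6 neutrophil markers (5.60 to 12.5 CPM in KO tumours and 3.89 to 53.6 CPM in WT tumours) overlapped, and Retnlg, a neutrophil marker, was at 0 in KO tumours. Mrc1, one of the macrophage markers, also had RNA in every culture, at 185 to 222 CPM. The epithelial, fibroblast and T cell sums thus differed between the tumour groups in range, and the endothelial ranges overlapped slightly. The part of these markers in the results below was not tested.

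Among 16257 genes tested in tumours, 19.7% were called, 8.78% higher and 10.9% lower in KO tumours. All 10 members were tested, and 3 were called, each lower in KO tumours (Jun, Egr1 and Egr3). The median log2 fold change was -0.68, against -0.01 over all genes. The groups did not overlap for 6 of the 10, against 53.7% of all genes tested.

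Jun had 41.6 and 55.2 CPM in KO tumours, against 196, 180 and 71.3 CPM in WT tumours. WT tumour 3 lay far below the other two WT tumours and only a little above the KO tumours. The log2 fold change was -1.65 ± 0.43 (SE), a 3.13-fold lower level in KO tumours (edgeR adjusted p = 0.0409). The Jun call was lost without KO tumour 1, KO tumour 3, WT tumour 1 or WT tumour 2 (edgeR adjusted p = 0.173, 0.0798, 0.108 and 0.118) and with limma-voom (adjusted p = 0.0640), at values from -2.00 to -1.41 over all alternatives. Jun overlaps Junos, an antisense gene with 171 counts over all libraries, and how reads in the shared bases were counted is not known.

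Egr1 had 26.9 and 45.0 CPM in KO tumours, against 57.3, 112 and 76.0 CPM in WT tumours. All WT tumours were above both KO tumours, the nearest by a small margin, and the log2 fold change was -1.21 ± 0.33 (SE), a 2.31-fold lower level (edgeR adjusted p = 0.0459). The Egr1 call was lost without KO tumour 1 and without any of the 3 WT tumours (edgeR adjusted p = 0.186, 0.0504, 0.113 and 0.0906) and with limma-voom (adjusted p = 0.0515), and its sign was negative in each alternative.

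Egr3 had 0.35 and 0.43 CPM in KO tumours, against 1.85, 4.12 and 3.61 CPM in WT tumours. These values rest on 6 and 8 counts in KO tumours, against 38, 82 and 85 counts in WT tumours. Every WT tumour stood several-fold above both KO tumours. The log2 fold change was -3.02 ± 0.52 (SE), an 8.14-fold lower level (edgeR adjusted p = 0.0118), and without KO tumour 1 the call was lost at -2.89 (edgeR adjusted p = 0.0527).

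Egr2 had 2.98 and 3.02 CPM in KO tumours, against 4.18, 5.27 and 5.23 CPM in WT tumours. The groups were separate, but the difference of -0.72 ± 0.28 (log2, SE) was not called (edgeR adjusted p = 0.114). Fos had 55.8 and 96.3 CPM in KO tumours, against 48.0, 38.7 and 22.7 CPM in WT tumours. Both KO tumours were above all WT tumours, KO tumour 1 by little, and the Fos difference of 1.04 ± 0.34 (log2, SE) was not called (edgeR adjusted p = 0.0766). It was called with DESeq2 (adjusted p = 0.0191), with no filter on low counts (edgeR adjusted p = 0.0120) and in the fit of all 9 libraries (edgeR adjusted p = 0.0192).

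Fosb differed most between replicates. It had 1.69 and 18.1 CPM in KO tumours, against 16.3, 32.2 and 18.3 CPM in WT tumours. KO tumour 1 was far lower than KO tumour 3, which lay within the range of the WT tumours. The Fosb difference of -1.19 ± 0.81 (log2, SE) was not called (edgeR adjusted p = 0.339), and without KO tumour 3 it was -3.70 (edgeR adjusted p = 0.00972).

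Fosl2 had 86.2 and 91.3 CPM in KO tumours, against 113, 108 and 106 CPM in WT tumours. Replicates were tight and the groups separate, yet the difference was small, at -0.31 ± 0.11 (log2, SE), and was not called (edgeR adjusted p = 0.0869). Fosl1 had 31.6 and 37.6 CPM in KO tumours, against 27.3, 21.7 and 36.6 CPM in WT tumours, and its groups overlapped. Junb had 504 and 318 CPM in KO tumours, against 335, 344 and 363 CPM in WT tumours, with the KO tumours on either side of the WT tumours. Atf3 had 13.3 and 31.7 CPM in KO tumours, against 46.5, 45.1 and 11.9 CPM in WT tumours, where WT tumour 3 was the lowest of the 5. None of these was called. Junb was called higher without KO tumour 3 (0.55, edgeR adjusted p = 0.0240) and had the opposite sign without KO tumour 1 (-0.15, edgeR adjusted p = 0.454).

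Fosl1, Junb and Jun share exon bases with genes on the opposite strand. Fosl1 shares 1163 of 2033 exon bases with Ccdc85b, Junb shares 173 of 2301 with Prdx2 and Jun shares 232 of 3189 with Junos. The strand setting of the counting is not given in the sources used here. If strand was not used, reads in the shared bases could be added to a member's count or be missing from it.

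Whether the KO effect differed between tumours and culture was tested in 1 fit of all 9 libraries. Of 16793 genes, 5.69% were called, 1.54% with a lower and 4.15% with a higher KO effect in tumours. Of the 10 members 2 were called, both lower, Egr1 and Fosl2. The median difference of the members was -0.91 (log2), against 0.05 over all genes.

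For Egr1 the difference was -2.98 ± 0.45 (log2, SE; edgeR adjusted p = 0.00425), from a KO effect of -1.21 in tumours and 1.75 in culture. It was called in each of the 15 alternatives, at values from -3.39 to -2.62 and an adjusted p of at most 0.0376. For Fosl2 the difference was -0.95 ± 0.24 (log2, SE; edgeR adjusted p = 0.0440), from -0.31 in tumours and 0.61 in culture. The Fosl2 call was lost in 8 of 15 alternatives. These were scaling by library totals (edgeR adjusted p = 0.0751), limma-voom (adjusted p = 0.0521) and leaving out KO culture 1, WT culture 2, KO tumour 1, WT tumour 1, WT tumour 2 or WT tumour 3 (edgeR adjusted p = 0.206, 0.209, 0.108, 0.0939, 0.0950 and 0.0601).

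The differences of Fosb (-2.84 ± 0.99, edgeR adjusted p = 0.127), Egr3 (-1.96 ± 0.88, edgeR adjusted p = 0.234) and Fos (-0.88 ± 0.44, edgeR adjusted p = 0.292) were not called. Without KO tumour 3 the Fosb difference was -5.39 and called (edgeR adjusted p = 0.000370). With no filter on low counts 5 members were called, Fos, Fosb and Atf3 in addition to the 2 above. The Fosb difference was then -2.85, close to the -2.84 of the main fit. That call thus does not carry the spread of Fosb between KO tumours (1.69 and 18.1 CPM). Jun had KO effects of -1.65 in tumours and -1.04 in culture, and the difference of -0.63 ± 0.51 was not called (edgeR adjusted p = 0.546).

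The same values were also set out within each line, tumours against cultures. The batch given in the labels coincides with culture or tumour, so growth in the mouse, host cells, dissociation and batch cannot be told apart here. The median gene was 0.17 higher (log2) in tumours in both lines under TMM scaling, and 0.60 (KO) and 0.64 (WT) higher under scaling by library totals, so changes are to be read relative to those shifts. In the KO line 59.3% of 16793 genes were called, 32.9% higher and 26.4% lower, and in the WT line 65.7% were called, 36.1% higher and 29.6% lower. Scaling by library totals moved this split to 7659 higher and 2636 lower in the KO line and 8410 higher and 3154 lower in the WT line, against 5519 higher and 4431 lower in the KO line and 6055 higher and 4977 lower in the WT line under TMM. The groups did not overlap for 78.8% of genes in the KO line and 81.4% in the WT line.

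Of the 10 members 6 were called in the KO line, 3 higher in tumours (Fos, Jun and Egr2) and 3 lower (Fosl1, Junb and Atf3), a share close to that of all genes. In the WT line all 10 were called, 7 higher in tumours (Fos, Fosb, Fosl2, Jun, Egr1, Egr2 and Egr3) and the same 3 lower. The median log2 fold change was -0.18 in the KO line and 1.65 in the WT line. The members thus did not move as 1 block between settings in either line, and the 3 lower genes were those with the highest levels per kilobase in culture.

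Fos was 1.00 ± 0.32 higher (log2, SE; edgeR adjusted p = 0.0189) in KO tumours than in KO cultures, and 1.88 ± 0.32 higher (edgeR adjusted p = 0.000435) in WT tumours than in WT cultures. The Fos call in the KO line was lost without KO culture 1, KO culture 2 or KO tumour 3 (edgeR adjusted p = 0.0581, 0.114 and 0.176). Jun was 0.98 ± 0.38 higher (edgeR adjusted p = 0.0455) in KO tumours than in KO cultures and 1.61 ± 0.36 higher (edgeR adjusted p = 0.00238) in WT tumours than in WT cultures. The Jun call in the KO line was lost with limma-voom (adjusted p = 0.0857) and without KO culture 1, KO culture 2, WT culture 1, WT culture 2 or KO tumour 3 (edgeR adjusted p = 0.0754, 0.232, 0.0664, 0.0667 and 0.175).

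Egr1 was -0.63 ± 0.32 (log2, SE; edgeR adjusted p = 0.107) in KO tumours against KO cultures and 2.34 ± 0.32 (edgeR adjusted p = 9.86e-05) in WT tumours against WT cultures. The fold in the WT line was 5.07, and its lowest WT tumour (57.3 CPM) lay within the range of the KO cultures (47.4 and 64.2 CPM). The KO cultures and the WT tumours were thus the groups with the most Egr1. In the KO line Egr1 was called lower in tumours without KO tumour 3 (-1.06, edgeR adjusted p = 0.0264) and with no filter on low counts (edgeR adjusted p = 0.00412).

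Egr2 was higher in tumours of both lines, by 4.54 ± 0.57 (log2, SE; edgeR adjusted p = 7.22e-05) in the KO line and 3.53 ± 0.45 (edgeR adjusted p = 6.36e-05) in the WT line. The summed counts were 107 in KO tumours against 4 in KO cultures, and 314 in WT tumours against 13 in WT cultures, so the folds have few counts in their denominators. Egr3 was 2.62 ± 0.51 higher (edgeR adjusted p = 0.00110) in WT tumours than in WT cultures. In KO tumours it had 14 summed counts, against 8 in KO cultures, and the difference was not called (edgeR adjusted p = 0.422).

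Fosb was 1.69 ± 0.69 higher (log2, SE; edgeR adjusted p = 0.0485) in WT tumours than in WT cultures, and Fosl2 was 1.13 ± 0.17 higher (edgeR adjusted p = 0.000165). The Fosb call was lost in 8 of its alternatives. These were DESeq2 (adjusted p = 0.0833), limma-voom (adjusted p = 0.0517) and leaving out KO culture 1, KO culture 2, WT culture 1, WT culture 2, WT tumour 2 or WT tumour 3 (edgeR adjusted p = 0.0686, 0.0681, 0.0917, 0.259, 0.128 and 0.0539). In the KO line neither was called, at -1.15 ± 0.71 for Fosb (edgeR adjusted p = 0.182) and 0.18 ± 0.18 for Fosl2 (edgeR adjusted p = 0.395). Fosb was called lower in KO tumours than in KO cultures with limma-voom (-1.94, adjusted p = 0.0440) and with no filter on low counts (-1.17, edgeR adjusted p = 2.64e-05). The value with no filter is close to the -1.15 of the main fit. Its small p-value thus does not carry the spread of Fosb between KO tumours (1.69 and 18.1 CPM). Without KO tumour 3 the Fosb value was -3.71. Fosl2 was called higher under library totals (0.61, edgeR adjusted p = 0.0263).

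The 3 genes that fell in tumours were Fosl1, Junb and Atf3. Fosl1 was -1.63 ± 0.25 (log2, SE; edgeR adjusted p = 0.000286) in the KO line and -1.44 ± 0.22 (edgeR adjusted p = 0.000218) in the WT line. Atf3 was -2.67 ± 0.55 (edgeR adjusted p = 0.00172) in the KO line and -1.60 ± 0.46 (edgeR adjusted p = 0.0105) in the WT line. The WT call of Atf3 was lost under library totals (-1.13, edgeR adjusted p = 0.0566) and without WT culture 2 (-1.56, edgeR adjusted p = 0.0536).

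Junb was -0.54 ± 0.19 (log2, SE; edgeR adjusted p = 0.0341) in KO tumours against KO cultures and -0.90 ± 0.17 (edgeR adjusted p = 0.000996) in WT tumours against WT cultures. In the KO line the Junb call was lost under library totals (-0.12, edgeR adjusted p = 0.606) and without KO culture 1, KO culture 2, KO tumour 3 or WT tumour 2 (edgeR adjusted p = 0.140, 0.0629, 0.242 and 0.0508). As the markers above show, tumour libraries hold RNA of cells that the cultures lack: the fibroblast markers summed to at most 0.28 CPM in KO cultures and 2.59 CPM in WT cultures, with 4 of 7 at 0 in each, among them Col1a2.

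**Figure D3:**
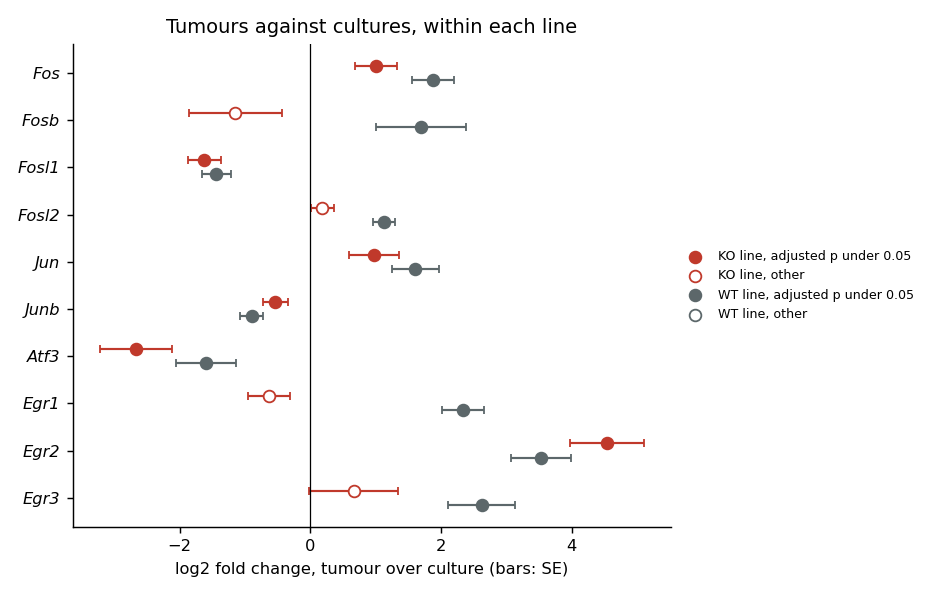
Log2 fold change of tumours over cultures for each gene in the KO line (red) and the WT line (grey), with bars for the SE; filled points have an edgeR adjusted p under 0.05. Fosl1, Junb and Atf3 lie below 0 in both lines, and Egr1 lies at -0.63 in the KO line and at 2.34 in the WT line.

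The other genes of the pathway were taken from lists. Of 30 other immediate early genes, 29 were tested in culture, with 8 called higher and 4 lower in KO cells, against 25.5% of all genes called. Their median was 0.30, against -0.00 over all genes. The 12 called became 7 without KO culture 1 or KO culture 2, 6 without WT culture 1, 3 without WT culture 2 and 8 in the fit of all 9 libraries. Fewer of all genes were called in each of these runs as well. Klf4, a zinc finger factor of epithelia, had 244 and 201 CPM in KO cultures, against 93.9 and 80.3 CPM in WT cultures (log2 fold change 1.31, edgeR adjusted p = 0.000125). Zfp36, which destabilises AU-rich mRNAs, was higher (1.13, edgeR adjusted p = 0.00790), as was the kinase gene Plk2 (1.01, edgeR adjusted p = 0.000614). Dusp1, a phosphatase that switches off MAP kinases, was lower in KO cultures (-0.71, edgeR adjusted p = 0.00789). Leaving out WT culture 2 ended the Zfp36 call (edgeR adjusted p = 0.0512), and Dusp1 was no longer called without WT culture 2 or KO culture 1 and in the fit of all 9 libraries (highest edgeR adjusted p = 0.0640).

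In tumours 3 of the 30 were called higher and 8 lower in KO, against 19.7% of all genes called. Their median was -0.10, against -0.01 over all genes. The 11 called became 5 without KO tumour 1, 6 without WT tumour 1 or WT tumour 2 and 7 without WT tumour 3. In each of these runs fewer of all genes were called as well. Klf4 was again higher in KO tumours, with 321 and 226 CPM against 108, 92.7 and 93.7 CPM in WT tumours (1.46, edgeR adjusted p = 0.00451), and Klf6 was higher (0.94, edgeR adjusted p = 0.00696). Ccn1, a matricellular protein gene that Srf and YAP control, had 38.7 and 24.9 CPM in KO tumours, against 86.3, 110 and 85.4 CPM in WT tumours (-1.58, edgeR adjusted p = 0.00799). Sgk1, a serum-induced kinase gene, was lower in KO tumours (-0.95, edgeR adjusted p = 0.00750).

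The KO effect differed between settings for 6 of the 30, 5 lower and 1 higher in tumours, against 5.69% of all genes. The count was 3 with library totals, 10 with DESeq2 and 11 with no filter on low counts. It was 2 without any 1 of the 4 cultures or WT tumour 2, 3 without KO tumour 1, 4 without WT tumour 3 and 9 without KO tumour 3. The number of all genes called moved the same way in each of these runs but that without WT tumour 3. For Ccn1, higher in KO cultures (487 and 444 CPM) than in WT cultures (290 and 297 CPM), the difference was -2.23 (log2, edgeR adjusted p = 0.00236). Ptgs2, which encodes cyclooxygenase 2, had 1.11 and 3.02 CPM in KO tumours, against 13.6, 12.2 and 15.6 CPM in WT tumours, while all 4 cultures lay between 107 and 119 CPM (difference -2.67, edgeR adjusted p = 0.00378). Trib1 was lower (-1.32, edgeR adjusted p = 0.0317) and Dusp1 higher (1.28, edgeR adjusted p = 0.0320). Both of these calls were lost under library totals and without any 1 of the 4 cultures or WT tumour 2, that of Trib1 also without KO tumour 1 (highest edgeR adjusted p = 0.152 for Trib1 and 0.141 for Dusp1). Between settings 59.3% of all genes were called in the KO line and 65.7% in the WT line, and the totals of this list lay near those shares. Of the 30, 13 were called lower and 6 higher in KO tumours than in KO cultures. In the WT line 14 were called lower and 8 higher in tumours. Ppp1r15a, a stress gene that relieves the translation block, was among the lower ones in both lines (-2.95 in KO and -2.60 in WT, edgeR adjusted p = 4.28e-06 and 3.13e-06).

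**Figure D4:**
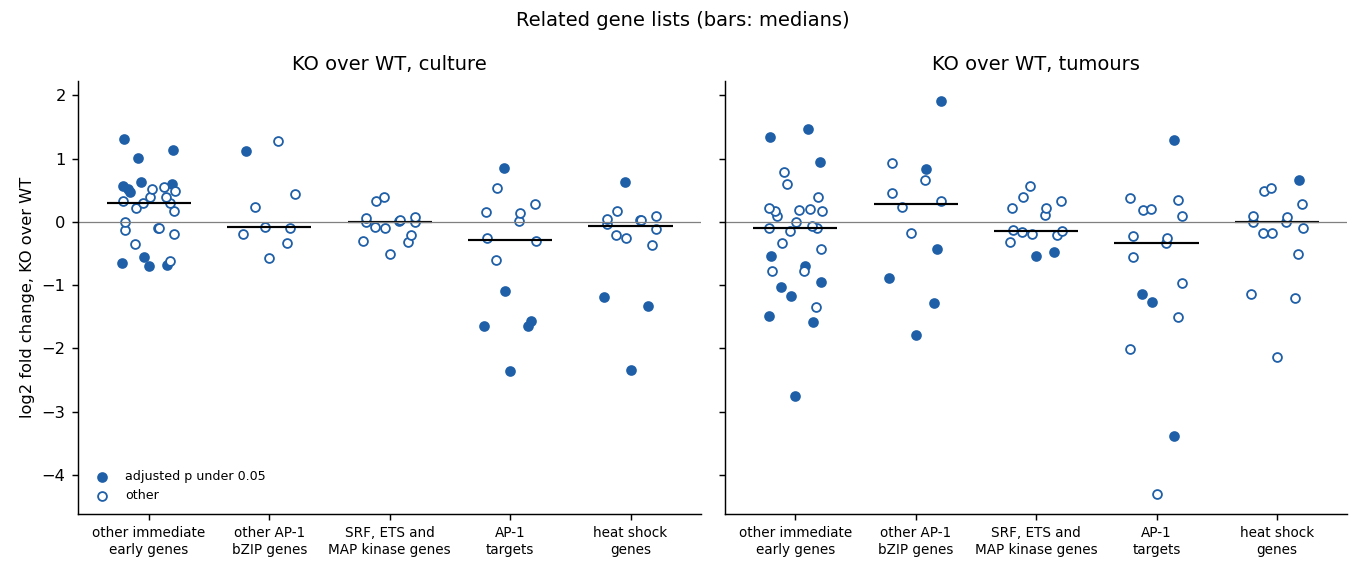
Log2 fold change of KO over WT for the tested genes of 5 related lists in culture and in tumours. Each point is 1 gene, filled where the edgeR adjusted p is under 0.05, and bars mark list medians. The other immediate early genes have a median of 0.30 in culture and -0.10 in tumours. The genes of Srf, its ETS partners and MAP kinases have medians of -0.00 in culture and -0.14 in tumours, with single genes such as Elk4 (-0.54 in tumours) further off.

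Among the other AP-1 family genes, 9 of 12 were tested in culture, where 25.5% of all genes were called. Jund, the AP-1 subunit least dependent on stimulation, was the only one of the 9 called. The count was 2 with no filter on low counts, 3 without KO culture 1, 2 without KO culture 2 and 3 in the fit of all 9 libraries. Jund had 415 and 265 CPM in KO cultures, against 156 and 150 CPM in WT cultures (1.11, edgeR adjusted p = 0.00157). In tumours, where 19.7% of all genes were called and the median of all genes was -0.01, all 12 were tested. Of these, 2 were called higher and 4 lower in KO, with a median of 0.28. The 6 called became 2 without KO tumour 1, 1 without WT tumour 1, 2 without WT tumour 2 and 4 without WT tumour 3. All genes called also became fewer in these tumour runs. Batf2 had 22.5 and 36.3 CPM in KO tumours, against 7.87, 8.54 and 6.63 CPM in WT tumours (1.91, edgeR adjusted p = 0.00465). Mafk was also higher (0.84, edgeR adjusted p = 0.0400), and Maf (-1.29, edgeR adjusted p = 0.0130) and Jdp2, a repressor of AP-1 (-1.79, edgeR adjusted p = 0.0393), were lower in KO tumours. The calls of Jdp2 and Mafk were lost without KO tumour 1 and without any 1 of the WT tumours (highest edgeR adjusted p = 0.108 and 0.165), and that of Maf without WT tumour 1 (edgeR adjusted p = 0.0587). No KO effect on these 12 genes was called different between settings by edgeR, where 3 had an unadjusted p under 0.05, while DESeq2 called 1, limma-voom 0 and edgeR with no filter on low counts 3.

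Nab1 and Nab2 encode corepressors that bind Egr proteins, and Nab2 is itself an Egr1 target. Nab2 had 10.7 and 13.0 CPM in KO tumours, against 24.7, 29.5 and 24.3 CPM in WT tumours. No tumours overlapped, and Nab2 was lower in KO tumours by -1.16 ± 0.17 (log2, SE; edgeR adjusted p = 0.00811). In culture Nab2 had 12.3 and 7.85 CPM in KO, against 10.99 and 8.49 CPM in WT, and the difference of 0.02 ± 0.26 was not called (edgeR adjusted p = 0.973). Its difference between settings was -1.19 ± 0.34 (edgeR adjusted p = 0.0644). Nab1 was not called in culture (0.23, edgeR adjusted p = 0.304) or in tumours (-0.29, edgeR adjusted p = 0.138), and Egr4 passed no filter.

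Of 14 genes for Srf, its partners and the ERK and JNK kinases, none was called in culture by edgeR, DESeq2 or limma-voom, and 1 had an unadjusted p under 0.05 in each of these tools. With the filter of CPM 1 edgeR called 1. The lowest adjusted p was that of Elk3, an ETS factor of the Srf complex (-0.51, edgeR adjusted p = 0.0506). In tumours 2 were called, both lower in KO. Of all genes, 25.5% were called in culture and 19.7% in tumours. Srf had 54.3 and 50.7 CPM in KO tumours, against 68.4, 69.5 and 78.3 CPM in WT tumours (-0.48, edgeR adjusted p = 0.0397), and its partner Elk4 was lower by a like amount (-0.54, edgeR adjusted p = 0.0207). The medians were -0.00 in culture and -0.14 in tumours, against -0.00 and -0.01 over all genes. The Srf call was lost without any 1 of the 5 tumours (highest edgeR adjusted p = 0.110), and that of Elk4 without WT tumour 1 or WT tumour 2 (highest edgeR adjusted p = 0.0892).

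Of 18 genes known as AP-1 targets, 14 were tested in culture, with 1 higher and 5 lower in KO cells, against 25.5% of all genes called. Their median was -0.28, against -0.00 over all genes. Mmp13, the gene of a collagenase, had 6.28 and 7.71 CPM in KO cultures, against 32.4 and 37.0 CPM in WT cultures (-2.36, edgeR adjusted p = 4.76e-06). Spp1 (-1.66, edgeR adjusted p = 0.000101) and Cd44 (-1.10, edgeR adjusted p = 0.000199) were lower too. In tumours 17 were tested, with 1 higher and 3 lower in KO, close to the 19.7% of all genes called. Their median was -0.34, against -0.01 over all genes. The count of 4 was 9 with DESeq2, 8 with no filter on low counts, 7 in the fit of all 9 libraries and 6 without KO tumour 3 or WT tumour 3. Cd44, a receptor for hyaluronan, was -1.27 (edgeR adjusted p = 0.00402), Spp1, which encodes osteopontin, was -1.14 (edgeR adjusted p = 0.00642) and Mmp9, the gene of a gelatinase, was -3.38 (edgeR adjusted p = 0.00547). Areg, an EGF receptor ligand gene, was higher (1.29, edgeR adjusted p = 0.0170), a call lost without KO tumour 1 (edgeR adjusted p = 0.0732). Host cells express several of these genes, and the markers above stand beside them untested.

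Heat shock genes are induced by stress and are often followed beside immediate early genes in dissociated tissue. Of 15 genes, 14 were tested in culture, with 1 higher and 3 lower in KO cells, close to the 25.5% of all genes called. Hspa1a and Hspa1b are near-identical copies whose reads the counting could split. Hspa1b had 15.9 and 12.5 CPM in KO cultures, against 33.0 and 29.8 CPM in WT cultures (-1.18, edgeR adjusted p = 0.000799). Its call was lost in the fit of all 9 libraries (edgeR adjusted p = 0.105). Hspb1 (-1.32, edgeR adjusted p = 0.000162) and Hspa1a (-2.35, edgeR adjusted p = 0.000227) were also lower in KO cultures and stayed called in that fit. In tumours 1 of 15 was called, Hspe1, higher in KO (0.66, edgeR adjusted p = 0.0286), and not without KO tumour 1, WT tumour 1 or WT tumour 2 (highest edgeR adjusted p = 0.105). DESeq2, edgeR with no filter and the fit of all 9 libraries each called 6, and edgeR called 3 without KO tumour 3 and 4 without WT tumour 3. Of all genes tested in tumours, 19.7% were called. Hspa1b had 54.8 and 58.4 CPM in KO tumours, against 151, 184 and 51.8 CPM in WT tumours. WT tumours 1 and 2 were high and WT tumour 3 lay with the KO tumours, as for Jun. Between settings, 4 were called higher and 6 lower in KO tumours than in KO cultures (6 in all without KO culture 2), and 5 higher and 6 lower in WT tumours than in WT cultures. Of all genes, 59.3% were called between settings in the KO line and 65.7% in the WT line. Hspe1 was lower in tumours of both lines (-1.78 in KO and -2.32 in WT, edgeR adjusted p = 0.000134 and 8.80e-06), and Bag3 was higher (1.19 in KO and 1.15 in WT, edgeR adjusted p = 0.000194 and 0.000118).

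The genes most like Fos, Fosl1 and Egr1 were sought by Pearson's r of log2(CPM + 1) over the 9 libraries among 10464 genes. The libraries share lines, settings and scaling, so r describes these 4 groups only. Nearest to Fos were Rprd2 (r = 0.964), Slc4a4 (0.964) and Ell (0.961). Slc4a4, a bicarbonate transporter gene, had 226 and 261 CPM in KO tumours, against 133, 141 and 90.6 CPM in WT tumours, and 130 and 109 CPM in KO cultures, against 63.0 and 57.4 CPM in WT cultures. Nearest to Fosl1 were Ube2j2 (0.986), Cav1 (0.985) and Cops8 (0.979). Cav1, the gene of a caveolar coat protein, had 43.0 and 61.8 CPM in KO tumours, against 25.8, 26.4 and 44.3 CPM in WT tumours, and 315 and 251 CPM in KO cultures, against 157 and 131 CPM in WT cultures. Nearest to Egr1 were Samd5 (0.963), Arfgap1 (0.953) and Itpr1 (0.953). Itpr1, an intracellular calcium channel gene, had 27.7 and 32.8 CPM in KO tumours, against 46.6, 58.1 and 49.3 CPM in WT tumours, and 38.6 and 36.7 CPM in KO cultures, against 27.8 and 23.6 CPM in WT cultures. Like Egr1, Itpr1 was higher in KO than in WT cultures and lower in KO than in WT tumours, a likeness that follows from how it was picked.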

How the data were processed

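The members and gene lists were chosen with earlier results of these data known. Per the labels' protocols, the libraries carried unique molecular identifiers by which duplicates were removed, and ERCC RNA had been added, although no ERCC gene is in the tables. The submitters' processing notes name GRCm38 and these tools without a role: DESeq2, featureCounts, Subread 1.5.2, STAR 2.5.2b and fastp 0.23.1. Annotation release and strand setting: not given in the sources used here. Every value starts from the deposited raw counts per Ensembl gene, 1 table for culture and 1 for tumours, made by the authors; their normalized and rlog tables were not used. Symbols and positions came from GENCODE M21 on GRCm38. One KO tumour column bears the number 3, which no KO tumour has in the labels. It was placed in its group alone and is called KO tumour 3.

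A gene entered a fit if it passed edgeR's filterByExpr (counts of at least 10, total of at least 15). Counts were scaled by TMM, and group means were compared by the quasi-likelihood test in edgeR 4.0.16 (R 4.3.3). KO against WT was fitted separately for the culture and the tumour libraries. The difference of the KO effects, and tumours against cultures, came from 1 fit of 4 group means over all 9 libraries. P-values were adjusted by Benjamini and Hochberg over all genes of the fit, with a threshold of 0.05. Log2 fold changes have a prior count of 0.125, and SEs were derived from the F statistic (log2 fold change over its square root). Printed CPM are scaled over all 9 libraries, also where a test used 1 setting. Precision is limited by 2 or 3 libraries per group. The procedure was tested on simulated data.

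Named genes were all members, Itga2, up to 4 genes of each list with the smallest p in a comparison 1 of which is not reported here, all of Egr4, Nab1 and Nab2, and the 3 genes with the highest r for Fos, Fosl1 and Egr1 (mean CPM of at least 5). Alternatives were RLE scaling, scaling by library totals, no filter, a filter of CPM 1 in all libraries of a group, limma-voom (limma 3.58.1), DESeq2 1.42.0, a joint fit of the 9 libraries, the replicate number as a block, and leaving out each library.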

Additional observations from a re-analysis of the deposited data

Results flagged for a closer look

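For 2 of the genes the KO effect differed between tumours and culture by a direct test in 1 fit of all 9 libraries. For Egr1 the KO effect in tumours minus that in culture was -2.98 (log2, edgeR adjusted p = 0.00425), with lower Egr1 in KO than in WT tumours and higher Egr1 in KO than in WT cultures. For Fosl2 it was -0.95 (log2, edgeR adjusted p = 0.0440), and the effects within tumours and within culture had opposite signs. The Fosl2 effect within tumours was itself not called (edgeR adjusted p = 0.0869), and the call of the Fosl2 difference was lost in 8 of 15 alternatives. Single libraries standing apart could not be tested, since no group has more than 3.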

How the results depend on the processing

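Of 666 recomputed member values, 595 kept their direction and their side of the threshold, 48 were no longer called, 19 became called and 4 changed sign. The sign changes were those of genes that were not called. Without 1 library, Junb in tumours ran from -0.15 (KO tumour 1 left out) to 0.55, the difference of Fosl1 from -0.41 to 0.10 (KO culture 1 left out) and 0.055 (WT tumour 3 left out), and Fosl2 in the KO line from -0.040 (KO culture 2 left out) to 0.41. The cause was not tested. Members called in culture were 5, 3 in the fit of all 9 libraries and 4 to 6 without 1 library; in tumours 3, 1 with limma-voom and 0 to 4 without 1 library; for the difference 2, 1 with library totals, 5 with no filter, 1 with limma-voom and 1 to 3 without 1 library. Tumours against cultures gave 6 in the KO line (3 to 6 without 1 library) and 10 in the WT line (8 to 10). Of all genes, 3461 were called in culture (2130 to 2985 without 1 library), 3206 in tumours (1171 to 4143) and 955 for the difference (288 to 1651, 1875 with no filter and 1625 with DESeq2). Where a library left out leaves a group with 1 sample, that sample is assumed to vary like the other groups.

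The labels number the cultures 1 and 2 in both lines. With the replicate block, 7587 of the 13573 genes tested were called in culture, against 3461 in the main fit, and so were all 8 members tested. Of the list genes tested, 21 of 29 other immediate early genes, 7 of 9 other AP-1 family genes and 11 of 14 AP-1 targets were called. The same run called 7 of 14 heat shock genes and 5 of 14 genes of the Srf list. These counts are to be read against the larger share of all genes called in that run. KO and WT cultures of the same number deviated together (r = 0.693 over 10354 genes), but 2 pairs do not establish a pairing. No paired analysis was possible for tumours because the column of the second KO tumour carries a number that the labels do not give.

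Depth limits Egr2 and Egr3, which had at most 10 counts in a culture and did not pass the filter of the culture comparison.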

Other observations

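WT tumour 3 differed from WT tumours 1 and 2 in several genes, picked after their values were seen. It had the lowest Jun (71.3 CPM, against 196 and 180 CPM), Atf3 (11.9 CPM, against 46.5 and 45.1 CPM), Hspa1a (6.33 CPM, against 23.9 and 37.9 CPM) and Jund (160 CPM, against 266 and 248 CPM) of the WT tumours. Its summed fibroblast and neutrophil markers were the highest of the 5 tumours, at 2321 and 53.6 CPM. Its Egr1, Egr2 and Egr3 lay within or next to the range of the other WT tumours, at 76.0, 5.23 and 3.61 CPM.

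KO tumour 1 had less Fosb (1.69 CPM) and Atf3 (13.3 CPM) than KO tumour 3 (18.1 and 31.7 CPM), and more Junb (504 CPM, against 318 CPM).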
